A study of Mus musculus with 32 samples.

Results

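The 40 genes described here carry cells through G2 and mitosis. They were taken by symbol from the count table, as a fixed list of mitotic cyclins and kinases, spindle checkpoint, kinetochore, kinesin, chromosome structure and cytokinesis genes, and are 40 of its 20234 genes. The cells were MEFs, fibroblasts cultured from the connective tissue of mouse embryos. There were 4 conditions of 4 samples each: control cells (0 h of thapsigargin), 1 h of thapsigargin, 16 h of thapsigargin, and 16 h of thapsigargin in which a PERK inhibitor was added for the last 4 h. Thapsigargin inhibits SERCA, the pump that fills the endoplasmic reticulum (ER) with calcium, and so brings on ER stress. PERK sits in the ER membrane and, when activated by that stress, phosphorylates eIF2, a factor that brings the first tRNA to the ribosome, which lowers protein synthesis. From each sample cytosolic RNA and polysome RNA, the mRNA bound to more than 4 ribosomes, were sequenced, giving 32 libraries. Not given in the sources used here are the genotype, passage and growth state of the fibroblasts, both doses, the identity of the inhibitor and any solvent control.

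Entry into mitosis is driven by cyclin B bound to the kinase Cdk1, which Cdc25 phosphatases switch on. Polo-like and Aurora kinases then build the spindle, kinetochores tie chromosomes to its microtubules, and the spindle checkpoint holds back the anaphase-promoting complex until every chromosome is attached. Once released, that complex, with its activator Cdc20, marks cyclin B and securin for destruction, separase cuts the cohesin rings, and the cell divides. Most of these mRNAs are known to rise in G2 and mitosis and to be low in resting cells, under a promoter programme of the MuvB complex that acts through a cell cycle homology region (CHR) near the start site, often next to CCAAT boxes bound by NF-Y. Because whole cultures were measured, fewer cells in G2 and mitosis and less of each mRNA per cell cannot be told apart in any value below.

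These promoter elements were looked up in RefSeq promoter windows of build GRCm38.p6, from 250 bases before to 50 bases after the start site. Windows matched 33 of the 40 genes (36 windows). Ccna2, Cdc25c, Aurkb, Incenp, Kif20a, Tpx2 and Smc4 had no entry. A CHR, searched as TTTGAA or TTCGAA on both strands, lay in a window of 26 of the 33 genes (78.8%), against 21.7% of all 27025 genes with a window. CCAAT, also on both strands, lay in 26 of the 33 (78.8%), against 41.1% of all. Both were found in 23 of the 33 (69.7%), against 8.61% of all, and no match of one overlapped a match of the other. A CHR whose centre lay within 50 bases of the start site was found in 23 of the 33 (69.7%), against 6.25% of all. The 7 genes with a window and no CHR match were Ccnb1, Nek2, Birc5, Mad2l1, Cenpe, Nuf2 and Pttg1. A match is only a stretch of these letters, and its absence from a window says nothing of the factor that binds there.

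The windows of 8 genes are shown because they span the cyclins, the anaphase-promoting complex, the checkpoint, the kinetochore and chromosome structure, and because Ccnb1 stands among them with CCAAT boxes and no CHR. Each runs from 170 bases before to 30 bases after the RefSeq start site, 5′ to 3′ along the gene, and capitals mark CHR and CCAAT matches on either strand (read as TTCAAA and ATTGG on the other strand). The coordinates are Ccnb1 chr13:100786457-100786656 (minus strand), Ccnb2 chr9:70421525-70421724 (minus strand), Cdk1 chr10:69352883-69353082 (minus strand), Cdc20 chr4:118437314-118437513 (minus strand), Ube2c chr2:164769759-164769958 (plus strand), Bub1 chr2:127831830-127832029 (minus strand), Cenpf chr1:189688057-189688256 (minus strand) and Top2a chr11:99024160-99024359 (minus strand).
Ccnb1: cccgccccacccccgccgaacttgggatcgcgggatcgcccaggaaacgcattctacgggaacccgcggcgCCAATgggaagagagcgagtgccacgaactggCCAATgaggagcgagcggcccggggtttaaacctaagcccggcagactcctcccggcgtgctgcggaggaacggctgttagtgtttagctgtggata
Ccnb2: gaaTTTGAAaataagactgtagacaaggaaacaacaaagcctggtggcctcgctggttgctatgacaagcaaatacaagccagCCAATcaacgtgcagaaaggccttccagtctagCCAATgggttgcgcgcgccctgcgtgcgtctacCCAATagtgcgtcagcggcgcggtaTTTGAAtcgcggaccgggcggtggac
Cdk1: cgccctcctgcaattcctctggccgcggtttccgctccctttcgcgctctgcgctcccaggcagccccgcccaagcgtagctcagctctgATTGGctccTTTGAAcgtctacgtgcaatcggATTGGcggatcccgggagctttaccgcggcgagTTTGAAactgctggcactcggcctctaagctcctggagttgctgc
Cdc20: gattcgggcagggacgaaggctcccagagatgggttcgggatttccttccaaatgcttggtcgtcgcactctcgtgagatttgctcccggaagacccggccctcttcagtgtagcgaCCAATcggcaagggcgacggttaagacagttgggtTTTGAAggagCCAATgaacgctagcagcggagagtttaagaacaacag
Ube2c: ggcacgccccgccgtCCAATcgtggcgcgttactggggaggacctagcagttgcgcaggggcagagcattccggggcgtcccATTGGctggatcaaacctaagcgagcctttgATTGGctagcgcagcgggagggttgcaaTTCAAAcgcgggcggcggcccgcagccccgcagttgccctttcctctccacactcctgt
Bub1: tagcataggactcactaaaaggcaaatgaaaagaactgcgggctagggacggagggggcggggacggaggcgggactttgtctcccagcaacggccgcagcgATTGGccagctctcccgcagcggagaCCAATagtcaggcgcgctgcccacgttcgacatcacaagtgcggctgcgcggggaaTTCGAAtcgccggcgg
Cenpf: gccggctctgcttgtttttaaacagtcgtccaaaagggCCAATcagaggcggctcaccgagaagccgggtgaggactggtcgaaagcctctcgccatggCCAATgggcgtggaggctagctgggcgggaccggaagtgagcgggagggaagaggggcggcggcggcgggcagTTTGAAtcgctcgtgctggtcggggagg
Top2a: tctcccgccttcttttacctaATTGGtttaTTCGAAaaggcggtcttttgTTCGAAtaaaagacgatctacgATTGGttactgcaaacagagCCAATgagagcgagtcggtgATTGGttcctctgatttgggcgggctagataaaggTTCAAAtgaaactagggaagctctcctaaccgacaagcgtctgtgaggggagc

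**Figure D1:**
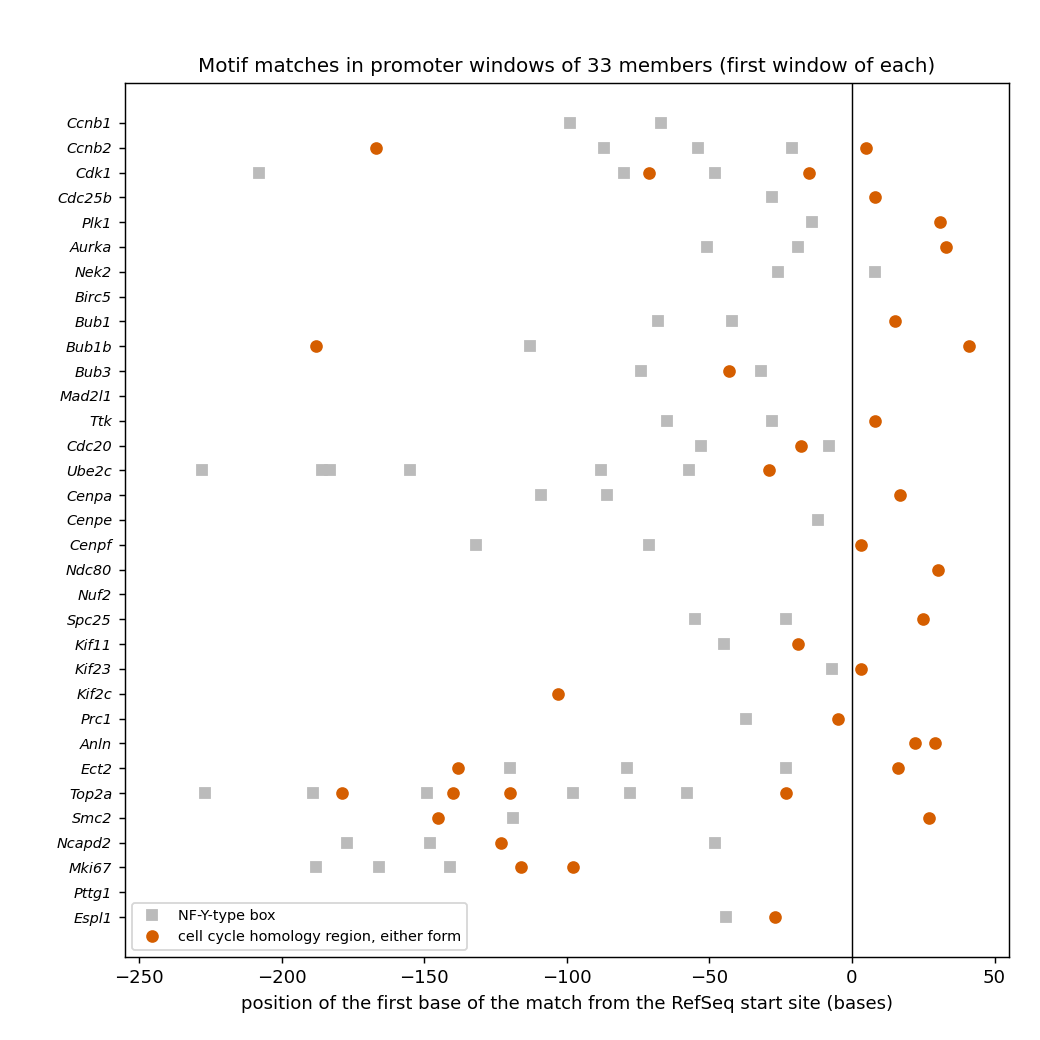
Position of each CHR match (orange circles) and CCAAT-type match (grey squares) in the first promoter window of 33 genes, as the distance in bases of the first base of the match from the RefSeq start site at 0. In 23 of the 33 genes a CHR match begins within 50 bases of the start site, on either side of it.

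Total counts ran from 19.32 M to 41.78 M per library. The widest ranges within a group were those at 1 h, 19.32 M to 34.76 M in cytosolic and 21.16 M to 34.68 M in polysome RNA. The lowest count of any of the 40 genes in any library was 82, and all 40 passed the filter on low counts in cytosolic RNA, polysome RNA and translational efficiency. All 9 fibroblast markers in the table averaged at least 10 CPM (each count relative to its library total, TMM-adjusted within an RNA kind) in cytosolic RNA, while all 5 epithelial, all 4 endothelial and all 4 muscle markers averaged under 1 CPM. So did 3 of 4 macrophage and blood markers and 2 of 3 pluripotency markers in the table, but only 1 of 4 neural markers. Nes (nestin, a filament protein of progenitor cells) was the neural marker over 10 CPM on average across all cytosolic libraries. Its mean was 107.9 CPM in control cells, 99.6 CPM at 1 h, 25.6 CPM at 16 h and 47.3 CPM with the inhibitor. The summed level of the 9 fibroblast markers moved with the conditions, at 8974 to 12562 CPM in control libraries, 19866 to 24716 CPM at 1 h, 4369 to 5152 CPM at 16 h and 4342 to 5022 CPM with the inhibitor. That of the 4 neural markers was 109.6 to 116.4, 99.3 to 113.2, 39.6 to 46.2 and 46.7 to 55.3 CPM in the same order. Nes made up most of that sum. Tubb3, another neural marker, went the other way, with means of 2.57 CPM in control cells, 6.26 CPM at 1 h, 17.3 CPM at 16 h and 2.67 CPM with the inhibitor. The ER stress response was present, since 6 of 6 check genes rose at 1 h and at 16 h in cytosolic RNA. Hspa5, the ER chaperone BiP, was 16.7-fold higher at 16 h than in control cells. With the inhibitor 6 of 6 fell relative to 16 h, Atf3, a stress transcription factor, by 5.74 on the log2 scale. The labels do not say that the 4 samples of a condition were separate cultures. A p-value here weighs a difference between conditions only against the spread of these samples, which may be technical.

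In cytosolic RNA the mitotic genes first rose and then fell. At 1 h 31 of the 40 were higher than in control cells and 5 were lower, with a median log2 change of 0.46, where 28.1% of all 12366 genes tested were called higher and 28.1% lower (median 0.0031). At 16 h 39 of the 40 were lower than in control cells and 1, Bub3, was higher, with a median of -1.26. Over all genes 37.9% were called higher and 39.4% lower at 16 h (median -0.012). A gene was called at an adjusted p under 0.05 (edgeR's quasi-likelihood test, Benjamini-Hochberg over all genes tested), and errors after a log2 change are standard errors. The libraries of 16 h and control cells did not overlap for 39 of the 40 genes, against 66.4% of all genes. Between 16 h and 1 h 38 of the 40 fell (median -1.75), where 37.7% of all genes fell and 37.7% rose. The other 2, Bub3 (0.046 ± 0.044, adjusted p = 0.356) and Mad2l1 (-0.12 ± 0.073, adjusted p = 0.143), were not called, and Smc2 was the third highest (-0.69). The 3 lowest were Mki67 (-3.52 ± 0.078, adjusted p = 1.71e-16), Ccnb2 (-3.46 ± 0.075, adjusted p = 1.13e-16) and Cenpf (-3.16 ± 0.085, adjusted p = 2.20e-15), and the other core genes fell between them and Smc4 (-0.77). Fibroblast markers were likewise higher at 1 h and lower at 16 h in sum, but not each of them. Thy1 (mean 129.6 CPM in control cells, 71.4 CPM at 1 h) and S100a4 (534.5 and 305.5 CPM) were lower at 1 h, while the other markers were higher. Fn1 moved little by 16 h (2237 CPM in control cells, 2081 CPM at 16 h). The part of the fibroblast markers in these changes was not tested. The summed level of the 40 genes was 2154 to 2457 CPM in control libraries, 2965 to 3133 CPM at 1 h and 919 to 1016 CPM at 16 h.

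**Figure D2:**
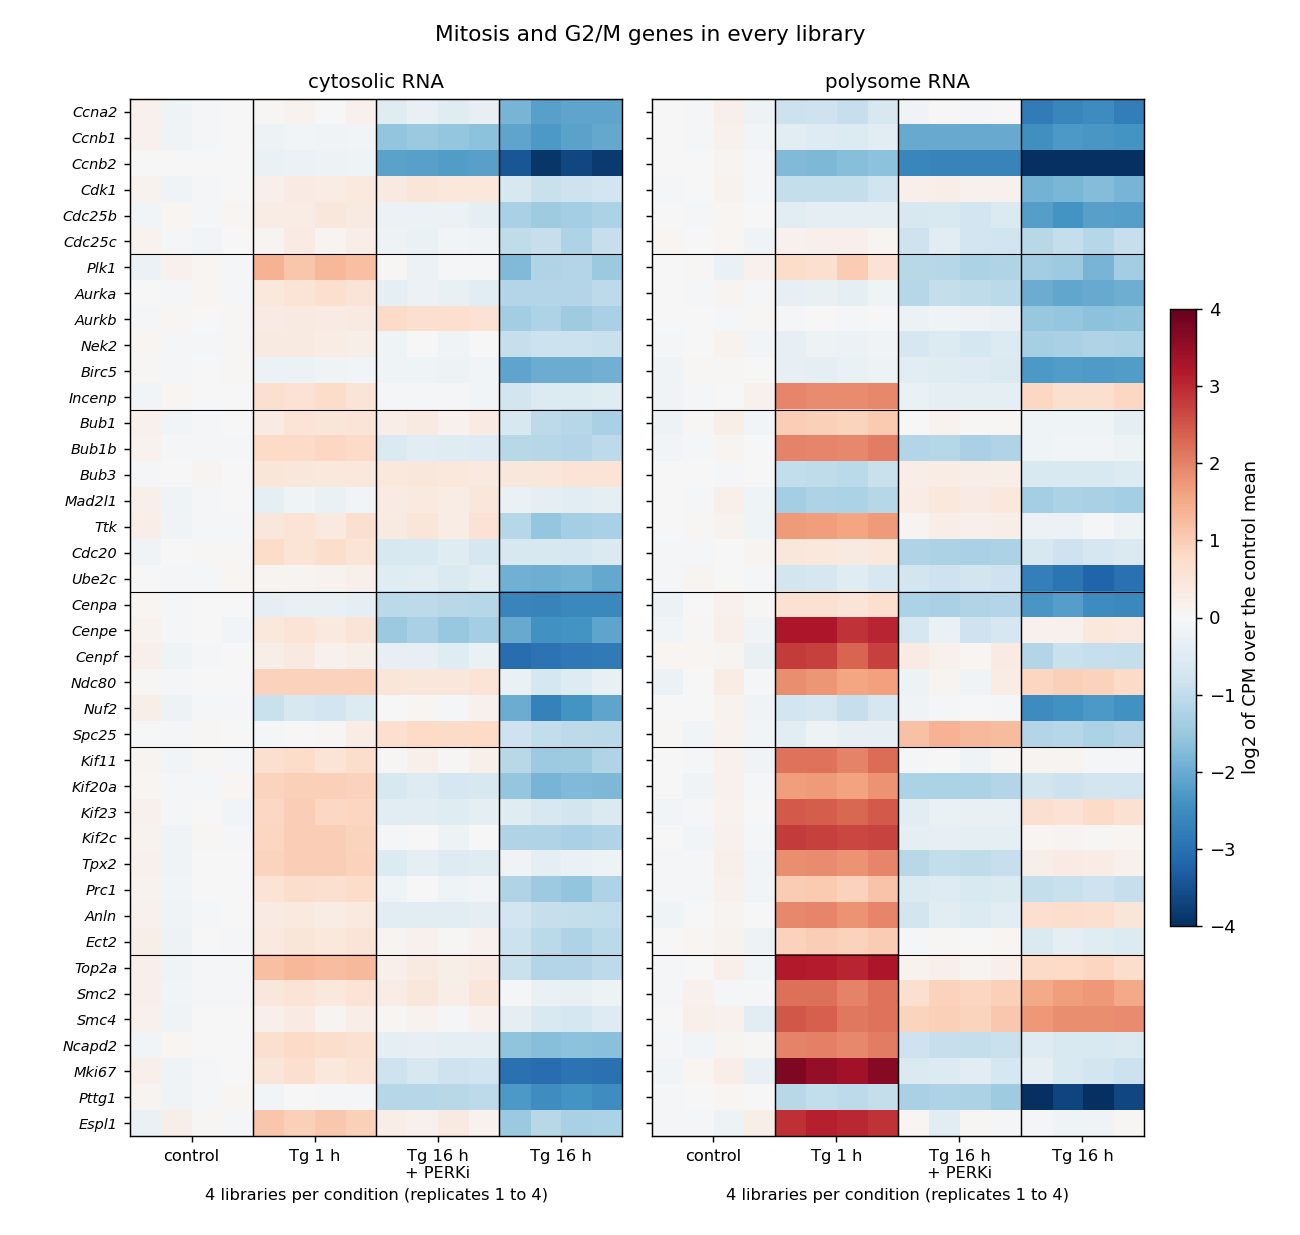
Level of each of the 40 genes in every library, as log2 of CPM over the mean of the 4 control libraries of the same RNA kind, with rows by role and columns of 4 libraries per condition. In cytosolic RNA 39 of the 40 genes are below control at 16 h, and Bub3 is above it. In polysome RNA the lower rows (motors, cytokinesis and chromosome structure) are mostly above control at 1 h, while the cyclins in the top rows are mostly below it.

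**Figure D3:**
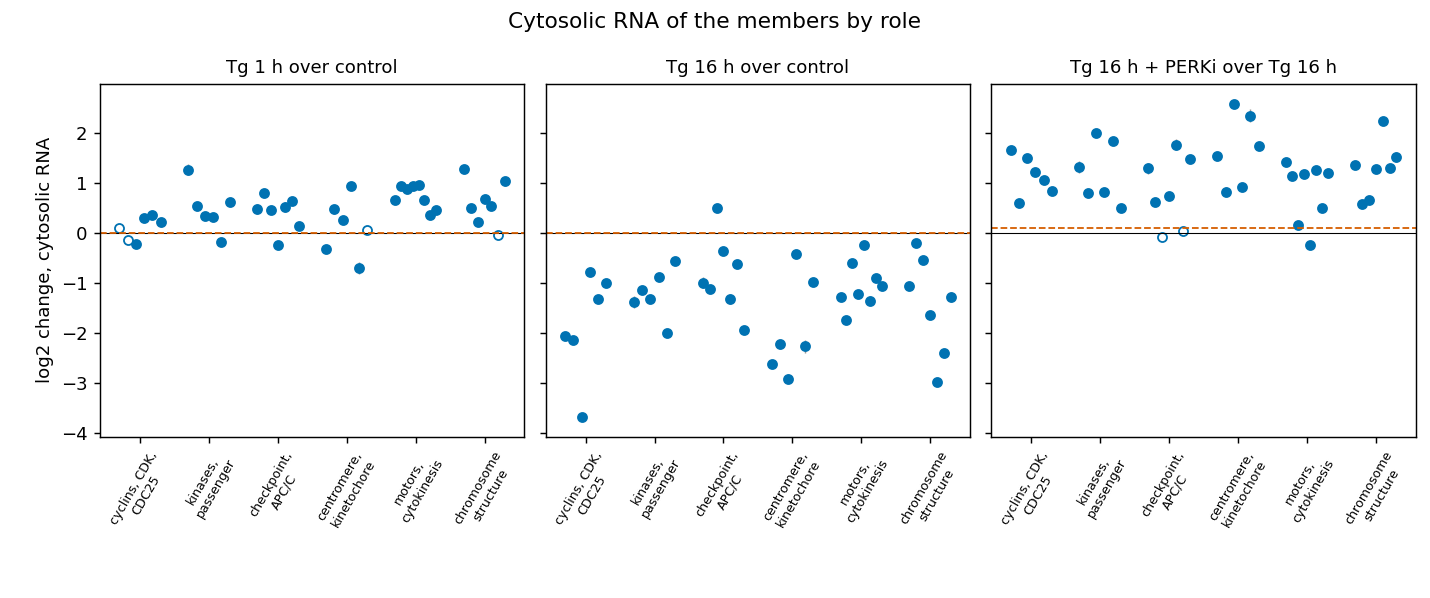
Log2 change of cytosolic RNA of the 40 genes by role, in 3 comparisons. Filled points were called and open points were not, error bars (mostly hidden by the points) are standard errors, and the dashed line is the median of all genes tested. Most points lie above the line at 1 h, 39 of 40 below it at 16 h, and 37 of 40 were called higher with the inhibitor.

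The counts by role that follow are read beside the shares of all genes, 28.1% higher and 28.1% lower at 1 h and 37.9% and 39.4% at 16 h. Among the cyclins, Cdk1 and the Cdc25 phosphatases, 3 of 6 rose and 1 fell at 1 h, and 6 of 6 fell at 16 h. Ccnb2, one of the B-type cyclins that activate Cdk1, had the lowest 16 h change of the 40. It was at 128.1, 123.9, 126.6 and 123.9 CPM in control cells, 103.6, 106.1, 109.4 and 111.9 CPM at 1 h and 11.7, 8.51, 10.2 and 8.90 CPM at 16 h. The 3 conditions did not overlap, and the log2 change was -0.22 ± 0.065 (adjusted p = 0.00784) at 1 h and -3.68 ± 0.075 (adjusted p = 4.77e-17) at 16 h, which is 12.8-fold lower. Ccnb1, the main mitotic cyclin, was at 119.1, 97.6, 103.5 and 106.1 CPM in control cells, 93.6, 99.4, 96.05 and 98.2 CPM at 1 h and 24.8, 21.7, 24.1 and 25.7 CPM at 16 h. Control and 1 h libraries overlapped and Ccnb1 was not called at 1 h (-0.14 ± 0.061, adjusted p = 0.0624), while every 16 h library lay far below both (-2.15 ± 0.065, adjusted p = 8.34e-15). Cdk1, their kinase partner, was at 103.8, 84.2, 90.3 and 94.9 CPM in control cells, 106.9, 116.7, 115.4 and 121.5 CPM at 1 h and 59.7, 49.9, 52.2 and 54.6 CPM at 16 h. It rose by 0.30 ± 0.066 (adjusted p = 8.55e-04) at 1 h, and its change at 16 h, -0.79 ± 0.066 (adjusted p = 8.91e-09), was smaller than that of either cyclin. Cdc25b, a phosphatase that starts Cdk1 activation, was at 35.1, 40.7, 36.9 and 39.9 CPM in control cells, 47.2, 46.7, 52.2 and 48.9 CPM at 1 h and 15.6, 14.3, 14.8 and 16.004 CPM at 16 h. Its 3 conditions did not overlap either, with a log2 change of 0.35 ± 0.06 (adjusted p = 8.76e-05) at 1 h and -1.33 ± 0.062 (adjusted p = 3.14e-12) at 16 h.

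Of the mitotic kinases and the chromosomal passenger complex, which corrects faulty attachments and guides cytokinesis, 5 of 6 rose and 1 fell at 1 h, and 6 of 6 fell at 16 h. Plk1, the polo-like kinase of mitotic entry and spindle assembly, was at 11.03, 14.4, 13.6 and 12.6 CPM in control cells, 34.02, 28.01, 32.1 and 29.6 CPM at 1 h and 3.78, 5.61, 5.73 and 4.61 CPM at 16 h. Its rise at 1 h, 1.26 ± 0.11 (adjusted p = 5.71e-08), was among the 3 highest of the 40 genes, and its change at 16 h was -1.39 ± 0.12 (adjusted p = 1.39e-08). Aurkb, the kinase of the passenger complex, was at 28.4, 31.4, 29.95 and 31.2 CPM in control cells, 37.96, 38.7, 37.6 and 38.6 CPM at 1 h and 11.6, 12.8, 11.3 and 12.4 CPM at 16 h. No 2 of these conditions overlapped, and the log2 change was 0.34 ± 0.054 (adjusted p = 4.64e-05) at 1 h and -1.33 ± 0.056 (adjusted p = 8.48e-13) at 16 h. Birc5 (survivin), which holds the complex at the centromere, was at 84.7, 78.1, 80.96 and 84.3 CPM in control cells, 68.97, 69.7, 73.9 and 76.2 CPM at 1 h and 18.9, 20.8, 20.7 and 21.7 CPM at 16 h. It was the member of this group that fell at 1 h, by little (-0.18 ± 0.048, adjusted p = 0.00359), and at 16 h it was 3.99-fold lower (-1.998 ± 0.051, adjusted p = 9.20e-16).

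In the spindle checkpoint and anaphase-promoting complex group, 6 of 7 rose and 1 fell at 1 h, and 6 of 7 fell at 16 h. Bub3, a checkpoint protein that recruits Bub1 and BubR1 to kinetochores, went against the rest. It was at 49.7, 52.9, 57.3 and 51.8 CPM in control cells, 73.4, 73.1, 71.7 and 71.6 CPM at 1 h and 72.7, 72.5, 76.8 and 77.1 CPM at 16 h. Both treated conditions lay above control, with a log2 change of 0.45 ± 0.045 (adjusted p = 1.95e-07) at 1 h and 0.50 ± 0.045 (adjusted p = 1.83e-08) at 16 h, and overlapped each other. Bub1b (BubR1), which binds and blocks Cdc20, was at 53.2, 47.4, 46.8 and 47.3 CPM in control cells, 84.5, 83.6, 85.6 and 82.3 CPM at 1 h and 22.4, 22.3, 21.6 and 23.6 CPM at 16 h. It followed the common course, 0.79 ± 0.049 (adjusted p = 6.65e-10) at 1 h and -1.12 ± 0.05 (adjusted p = 1.95e-12) at 16 h. Cdc20, the activator of the complex, was at 33.98, 37.4, 38.4 and 38.6 CPM in control cells, 61.3, 54.8, 60.04 and 54.3 CPM at 1 h and 23.6, 23.9, 23.5 and 24.6 CPM at 16 h, with changes of 0.63 ± 0.057 (adjusted p = 6.29e-08) and -0.63 ± 0.058 (adjusted p = 2.53e-08) relative to control. Ube2c, the ubiquitin-conjugating enzyme that works with the complex, was at 45.9, 43.6, 44.4 and 47.97 CPM in control cells, 49.2, 48.8, 50.5 and 52.4 CPM at 1 h and 12.1, 11.7, 12.3 and 11.02 CPM at 16 h. Its rise at 1 h was small (0.14 ± 0.051, adjusted p = 0.0258) and its fall at 16 h was 3.86-fold (-1.95 ± 0.055, adjusted p = 3.33e-15). Mad2l1 (MAD2), the checkpoint protein that captures Cdc20, was among the 5 genes lower at 1 h (-0.24 ± 0.073, adjusted p = 0.0111), although its control and 1 h libraries overlapped.

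Of the centromere and kinetochore genes 3 of 6 were higher and 2 lower at 1 h, where 28.1% of all genes were called higher and 28.1% lower. The 2 of 6 lower thus lay near the share of all genes. At 16 h 6 of 6 fell, with the lowest median of the 6 role groups (-2.25). Cenpa, the histone H3 variant that marks the centromere, was at 94.7, 85.1, 88.2 and 89.9 CPM in control cells, 69.7, 73.6, 72.2 and 69.5 CPM at 1 h and 14.2, 14.1, 14.999 and 14.9 CPM at 16 h. It fell at both times, -0.33 ± 0.043 (adjusted p = 5.69e-06) at 1 h and -2.62 ± 0.047 (adjusted p = 9.94e-18) at 16 h. Cenpe, the kinetochore kinesin that moves chromosomes to the spindle equator, was at 74.2, 64.4, 66.4 and 61.8 CPM in control cells, 88.9, 96.6, 87.05 and 96.3 CPM at 1 h and 16.5, 12.4, 12.7 and 15.4 CPM at 16 h. Here every 1 h library was above and every 16 h library below all control libraries (0.47 ± 0.084, adjusted p = 1.48e-04, and -2.23 ± 0.09, adjusted p = 4.58e-13). Cenpf, a large protein of the outer kinetochore, was at 58.3, 44.8, 48.6 and 51.3 CPM in control cells, 59.8, 64.5, 56.7 and 59.8 CPM at 1 h and 6.20, 6.55, 6.96 and 7.16 CPM at 16 h. Its 1 h and control libraries overlapped (0.25 ± 0.075, adjusted p = 0.0093), and its 16 h change, -2.92 ± 0.084 (adjusted p = 5.00e-15), was among the 3 lowest. Ndc80, the outer kinetochore protein that grips microtubules, was at 12.9, 12.2, 12.5 and 12.2 CPM in control cells, 23.9, 23.7, 23.5 and 23.6 CPM at 1 h and 10.3, 7.67, 8.74 and 10.2 CPM at 16 h. It rose by 0.93 ± 0.077 (adjusted p = 2.23e-08) at 1 h and changed by only -0.43 ± 0.078 (adjusted p = 9.17e-05) at 16 h. Nuf2, its partner in the same complex, had the lowest 1 h change of the 40, -0.70 ± 0.12 (adjusted p = 9.58e-05), with no library of 1 h cells inside the control range.

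All 8 genes of the spindle motors, midzone and cytokinesis rose at 1 h (median 0.77) and all 8 fell at 16 h (median -1.15). Kif11, the kinesin that pushes spindle poles apart, was at 32.6, 27.8, 30.8 and 28.6 CPM in control cells, 46.3, 50.1, 43.6 and 49.05 CPM at 1 h and 13.8, 11.01, 11.3 and 12.97 CPM at 16 h. The 3 conditions did not overlap (0.66 ± 0.076, adjusted p = 1.24e-06 at 1 h and -1.29 ± 0.079, adjusted p = 1.38e-10 at 16 h). Kif20a, a kinesin of the central spindle, was at 53.97, 48.6, 48.2 and 53.9 CPM in control cells, 93.9, 99.98, 99.7 and 96.8 CPM at 1 h and 17.4, 14.2, 15.1 and 14.6 CPM at 16 h, and likewise did not overlap (0.93 ± 0.061, adjusted p = 1.23e-09, and -1.74 ± 0.064, adjusted p = 1.30e-13). Anln (anillin), a scaffold of the contractile ring, was at 64.4, 52.1, 55.5 and 56.8 CPM in control cells, 71.3, 74.7, 70.7 and 75.4 CPM at 1 h and 33.9, 30.03, 29.4 and 28.6 CPM at 16 h. Its changes were smaller, 0.35 ± 0.063 (adjusted p = 1.41e-04) at 1 h and -0.91 ± 0.064 (adjusted p = 8.17e-10) at 16 h. Exons of Kif20a overlap those of Cdc23 on the other strand by 1271 nt, and those of Ube2c overlap Tnnc2 by 592 nt, Prc1 Rccd1 by 911 nt, Ccna2 Exosc9 by 510 nt, Cdc25b Spef1 by 92 nt and Cdc20 Elovl1 by 53 nt. Whether counting used strand is not stated in the sources, and reads of these pairs cannot be told apart without it.

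For chromosome structure and separation, 6 of 7 genes rose at 1 h and 7 of 7 fell at 16 h. Top2a, the topoisomerase that untangles sister DNA, had the highest 1 h change of the 40. It was at 147.9, 118.6, 124.9 and 126.1 CPM in control cells, 300.7, 326.2, 302.5 and 321.3 CPM at 1 h and 70.004, 56.8, 56.9 and 63.3 CPM at 16 h. Every 1 h library held more than 2 times the highest control library (1.27 ± 0.075, adjusted p = 3.36e-10), and at 16 h the change was -1.07 ± 0.075 (adjusted p = 8.34e-10). Mki67, the Ki-67 protein that coats mitotic chromosomes, was at 149.1, 115.3, 126.2 and 128.01 CPM in control cells, 182.8, 202.2, 172.6 and 188.95 CPM at 1 h and 16.4, 15.8, 16.6 and 16.4 CPM at 16 h. The fall at 16 h was 7.94-fold (-2.99 ± 0.077, adjusted p = 1.04e-15), after a rise of 0.53 ± 0.069 (adjusted p = 5.90e-06) at 1 h. Smc4, a condensin subunit that compacts chromosomes, was at 140.5, 112.2, 123.6 and 122.1 CPM in control cells, 144.02, 155.3, 133.8 and 148.2 CPM at 1 h and 94.2, 81.9, 76.97 and 87.01 CPM at 16 h. Smc4 changed by 0.22 ± 0.075 (adjusted p = 0.0186) at 1 h, where libraries overlapped, and by -0.55 ± 0.076 (adjusted p = 3.92e-06) at 16 h. Pttg1 (securin), the inhibitor of separase, was at 57.4, 48.2, 51.5 and 56.9 CPM in control cells, 49.8, 53.6, 50.99 and 52.2 CPM at 1 h and 10.96, 9.57, 10.2 and 9.51 CPM at 16 h. Securin was not called at 1 h (-0.051 ± 0.06, adjusted p = 0.5) and was 5.31-fold lower at 16 h (-2.41 ± 0.066, adjusted p = 2.27e-15). Espl1, separase itself, was at 25.9, 36.7, 32.6 and 29.9 CPM in control cells, 68.2, 60.3, 66.6 and 60.2 CPM at 1 h and 11.2, 14.5, 12.6 and 13.1 CPM at 16 h. Unlike its inhibitor it was higher at 1 h (1.03 ± 0.095, adjusted p = 8.43e-08), and it fell by 16 h (-1.28 ± 0.10, adjusted p = 2.73e-09).

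All 3 promoter classes fell at 16 h: 25 of 26 genes with a CHR match (median -1.18), 7 of 7 with a window and no match (median -2.15) and 7 of 7 with no window (median -1.01). At 1 h, 23 of the 26 with a match rose and 2 fell (median 0.52), against 2 risen and 3 fallen of the 7 without (median -0.14). Of the 7 with no window, 6 rose and 0 fell at 1 h (median 0.34). Over all genes 28.1% rose and 28.1% fell at 1 h, and 37.9% rose and 39.4% fell at 16 h. The 2 of 7 risen at 1 h without a match thus lay near the share of all genes. With the PERK inhibitor relative to 16 h all 3 classes rose, where 42.2% of all genes rose and 32.5% fell. Risen were 24 of 26 with a match (median 1.27), 7 of 7 without (median 0.82) and 6 of 7 with no window (median 0.83, 1 fallen). The difference between these classes was not tested.

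With the PERK inhibitor in the last 4 h, the cytosolic mRNAs of the mitotic genes were higher than at 16 h without it. Of the 40 genes 37 rose and 1, Tpx2, fell, with a median log2 change of 1.20, where 42.2% of all genes rose and 32.5% fell (median 0.10). Their summed level was 1883 to 2010 CPM with the inhibitor, against 919 to 1016 CPM at 16 h without it. Members of every role group rose: 6 of 6 cyclins, Cdk1 and phosphatases, 6 of 6 kinases and passengers, 5 of 7 checkpoint and anaphase-promoting complex genes, 6 of 6 kinetochore genes, 7 of 8 motors and cytokinesis genes and 7 of 7 chromosome structure genes.

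The 3 highest changes were those of Cenpf, Nuf2 and Mki67. Cenpf was at 40.8, 40.7, 36.1 and 42.5 CPM with the inhibitor, against 6.20, 6.55, 6.96 and 7.16 CPM without it, a 5.95-fold difference (2.57 ± 0.084, adjusted p = 4.87e-14). Mki67 was at 73.7, 83.6, 73.5 and 74.2 CPM with the inhibitor, against 16.4, 15.8, 16.6 and 16.4 CPM without it (2.22 ± 0.076, adjusted p = 8.38e-14), and Nuf2 changed by 2.34 ± 0.13 (adjusted p = 3.83e-11). Neither Cenpf nor Mki67 libraries came near to overlapping. Aurkb, at 51.1, 46.7, 47.99 and 45.04 CPM with the inhibitor, against 11.6, 12.8, 11.3 and 12.4 CPM without it (1.99 ± 0.056, adjusted p = 9.94e-15), and Birc5, at 73.03, 72.99, 71.9 and 75.6 CPM with the inhibitor, against 18.9, 20.8, 20.7 and 21.7 CPM without it (1.84 ± 0.051, adjusted p = 7.24e-15), also rose more than most. Together they form the enzyme and the anchor of the passenger complex. Incenp, the scaffold of that complex, rose least of its role group (0.50), to a mean of 41.9 CPM with the inhibitor, against 29.7 CPM without it. Cdk1 was at 120.002, 130.8, 125.1 and 125.8 CPM with the inhibitor, above every library of 16 h and of control cells (1.21 ± 0.067, adjusted p = 3.88e-11 relative to 16 h). Ccnb1 rose less, to 35.6, 38.3, 36.3 and 34.5 CPM with the inhibitor, against 24.8, 21.7, 24.1 and 25.7 CPM without it (0.59 ± 0.064, adjusted p = 2.61e-07). Ccnb2 was at 28.2, 27.999, 26.8 and 28.2 CPM with the inhibitor, 2.83-fold above 16 h (1.503 ± 0.073, adjusted p = 7.19e-12) and still below every control library.

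The other core genes that rose are given here in falling order. Relative to 16 h the log2 change was 1.53 ± 0.046 (adjusted p = 2.03e-14) for Cenpa, 1.52 ± 0.10 (adjusted p = 3.71e-10) for Espl1, 1.47 ± 0.054 (adjusted p = 2.52e-13) for Ube2c and 1.41 ± 0.079 (adjusted p = 5.20e-11) for Kif11. It was 1.35 ± 0.076 (adjusted p = 4.95e-11) for Top2a, 1.32 ± 0.12 (adjusted p = 3.17e-08) for Plk1, 1.30 ± 0.065 (adjusted p = 1.16e-11) for Pttg1, 1.12 ± 0.064 (adjusted p = 6.16e-11) for Kif20a and 1.06 ± 0.062 (adjusted p = 8.73e-11) for Cdc25b. These are genes of every stage from entry to separation. Below 1 on the log2 scale, like Ccnb1 above, were 0.91 ± 0.078 (adjusted p = 1.15e-08) for Ndc80, 0.82 ± 0.089 (adjusted p = 2.87e-07) for Cenpe, 0.65 ± 0.076 (adjusted p = 6.50e-07) for Smc4, 0.61 ± 0.05 (adjusted p = 8.42e-09) for Bub1b and 0.49 ± 0.064 (adjusted p = 2.47e-06) for Anln. At the low end stood 3 genes. Tpx2, the targeting factor of Aurora A on the spindle, fell (-0.24 ± 0.065, adjusted p = 0.00325), and Bub3 (-0.079 ± 0.044, adjusted p = 0.114) and Cdc20 (0.035 ± 0.058, adjusted p = 0.598) were not called. Cdc20 was at 24.1, 24.2, 26.4 and 23.3 CPM with the inhibitor, against 23.6, 23.9, 23.5 and 24.6 CPM without it, and these libraries overlapped.

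Against control cells the inhibitor group was mixed, 11 of the 40 genes higher and 19 lower (median -0.13), where 38.1% of all genes were called higher and 35.2% lower. The comparison shares its inhibitor libraries with the one above. The 3 highest were Spc25, a kinetochore protein (0.75 ± 0.074, adjusted p = 9.31e-08), Aurkb (0.66 ± 0.053, adjusted p = 8.03e-09) and Ndc80 (0.48 ± 0.076, adjusted p = 2.46e-05). The 3 lowest were Ccnb2 (-2.18 ± 0.069, adjusted p = 3.31e-14), Ccnb1 (-1.56 ± 0.063, adjusted p = 8.30e-13) and Cenpe (-1.41 ± 0.086, adjusted p = 1.97e-10), so the B-type cyclins stood below control while their kinase Cdk1 stood above it (0.43 ± 0.065, adjusted p = 1.77e-05). Of the other core genes, Bub3, Top2a and Espl1 were higher (0.42, 0.28 and 0.23). Pttg1, Cenpa, Mki67, Kif20a, Cdc20, Bub1b, Ube2c, Anln, Cenpf, Cdc25b and Birc5 were lower, with log2 changes from -1.11 for Pttg1 to -0.16 for Birc5. Plk1 (-0.072), Kif11 (0.13) and Smc4 (0.10) were not called.

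Polysome RNA gave a different split from cytosolic RNA. At 1 h 24 of the 40 genes were higher than in control cells and 14 lower (median 0.97), where 41.1% of all 12065 genes tested were higher and 38.5% lower (median 0.032). All 8 motors and cytokinesis genes rose (median 1.89) and 6 of 7 chromosome structure genes rose (median 2.29), while 5 of 6 cyclins, Cdk1 and phosphatases fell (median -0.64). Of the genes that rose in cytosolic RNA at 1 h, 23 also rose in polysome RNA and 6 fell there. At 16 h 9 of the 40 were higher than in control cells and 28 lower (median -0.73), against 42.3% and 42.9% of all genes. All 9 that were higher in polysome RNA at 16 h were lower in cytosolic RNA, as were 39 of the 40 genes. Such pairs of calls were not counted over all genes at either time. Between 16 h and 1 h 38 of the 40 fell in polysome RNA and 1, Bub3, rose (0.40 ± 0.043, adjusted p = 3.52e-08), against 40% and 38.4% of all genes. The 3 lowest were Mki67 (-4.20 ± 0.12, adjusted p = 1.69e-17), Cenpf (-3.65 ± 0.12, adjusted p = 1.92e-16) and Ccnb2 (-3.32 ± 0.052, adjusted p = 1.84e-21). The summed level was 2304 to 2585 CPM in control libraries, 3582 to 3891 CPM at 1 h and 1100 to 1124 CPM at 16 h.

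The highest 1 h changes in polysome RNA were those of Mki67, Top2a and Cenpe. Mki67 was at 5.18, 5.86, 6.77 and 4.52 CPM in control polysomes, 73.5, 64.4, 57.05 and 69.8 CPM at 1 h and 4.28, 3.65, 3.35 and 3.07 CPM at 16 h. The 1 h change was 11.9-fold (3.57 ± 0.11, adjusted p = 8.50e-17), whereas 16 h libraries lay below all control libraries (-0.63 ± 0.13, adjusted p = 1.02e-04). Top2a was at 48.5, 50.3, 59.1 and 47.2 CPM in control polysomes, 459.1, 450.6, 419.3 and 481.6 CPM at 1 h and 86.3, 88.6, 92.1 and 82.9 CPM at 16 h. Both treated groups lay above control without overlap (3.14 ± 0.065, adjusted p = 1.46e-19, and 0.77 ± 0.061, adjusted p = 2.56e-10). Cenpe was at 4.42, 4.99, 5.501 and 4.37 CPM in control polysomes, 45.7, 45.5, 35.6 and 39.6 CPM at 1 h and 5.41, 5.37, 6.45 and 6.34 CPM at 16 h. Its 16 h and control libraries overlapped (0.29 ± 0.12, adjusted p = 0.033), although cytosolic Cenpe had fallen far below control. Smc4 was at 5.60, 6.49, 6.41 and 4.19 CPM in control polysomes, 31.6, 29.4, 24.3 and 25.5 CPM at 1 h and 19.1, 20.5, 20.5 and 20.9 CPM at 16 h. Its 16 h change, 1.84 ± 0.11 (adjusted p = 2.72e-12), was the highest of the 40 genes, followed by the condensin subunit Smc2 (1.61 ± 0.081, adjusted p = 1.19e-13) and Ndc80 (0.88 ± 0.12, adjusted p = 7.06e-07).

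The cyclins moved down. Ccnb2 was at 296.6, 297.2, 320.97 and 284.1 CPM in control polysomes, 87.3, 87.02, 91.6 and 95.2 CPM at 1 h and 9.01, 8.69, 9.11 and 9.30 CPM at 16 h. Its changes, -1.73 ± 0.046 (adjusted p = 5.41e-18) at 1 h and -5.05 ± 0.055 (adjusted p = 6.08e-24) at 16 h, were the lowest of the 40, and the 16 h fall was 33.2-fold. Cdk1 was at 225.03, 238.5, 263.5 and 225.3 CPM in control polysomes, 122.4, 124.2, 121.7 and 137.4 CPM at 1 h and 63.9, 66.6, 71.3 and 66.03 CPM at 16 h. At 1 h it fell in polysomes (-0.91 ± 0.055, adjusted p = 3.08e-12) while it rose in cytosolic RNA. Pttg1 was at 57.4, 59.2, 64.3 and 60.9 CPM in control polysomes, 28.3, 30.8, 29.2 and 31.2 CPM at 1 h and 3.46, 4.73, 3.82 and 4.84 CPM at 16 h. Securin thus fell at both times (-1.02 ± 0.074, adjusted p = 7.37e-11, and -3.84 ± 0.087, adjusted p = 2.61e-19), while separase (Espl1) rose at 1 h (2.98 ± 0.10, adjusted p = 1.08e-15) and was not called at 16 h (-0.079 ± 0.10, adjusted p = 0.481). Bub3 was at 124.8, 127.5, 120.7 and 126.9 CPM in control polysomes, 62.9, 61.98, 59.1 and 66.99 CPM at 1 h and 81.4, 82.7, 82.1 and 85.8 CPM at 16 h. It was lower at both times (-0.99 ± 0.043, adjusted p = 1.20e-14, and -0.59 ± 0.042, adjusted p = 4.08e-11), against its rise in cytosolic RNA. Mad2l1 changed by -1.24 ± 0.066 (adjusted p = 3.90e-13) at 1 h, among the 3 lowest there, and Ube2c by -2.95 ± 0.086 (adjusted p = 1.40e-17) at 16 h, among the 3 lowest at that time.

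The remaining core genes filled the range. At 1 h polysome RNA of Cenpf, Kif11, Bub1b, Anln, Ndc80, Kif20a, Plk1, Cenpa and Cdc20 rose, from 2.67 for Cenpf to 0.41 for Cdc20 on the log2 scale. Ube2c (-0.63), Ccnb1 (-0.48), Cdc25b (-0.40) and Birc5 (-0.29) fell, and Aurkb (-0.03) was not called. At 16 h Anln was higher (0.62) and Kif11 (0.013) was not called. Cenpa, Ccnb1, Birc5, Cdc25b, Cdk1, Aurkb, Plk1, Cenpf, Kif20a, Cdc20 and Bub1b were lower, from -2.39 for Cenpa to -0.15 for Bub1b.

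**Figure D4:**
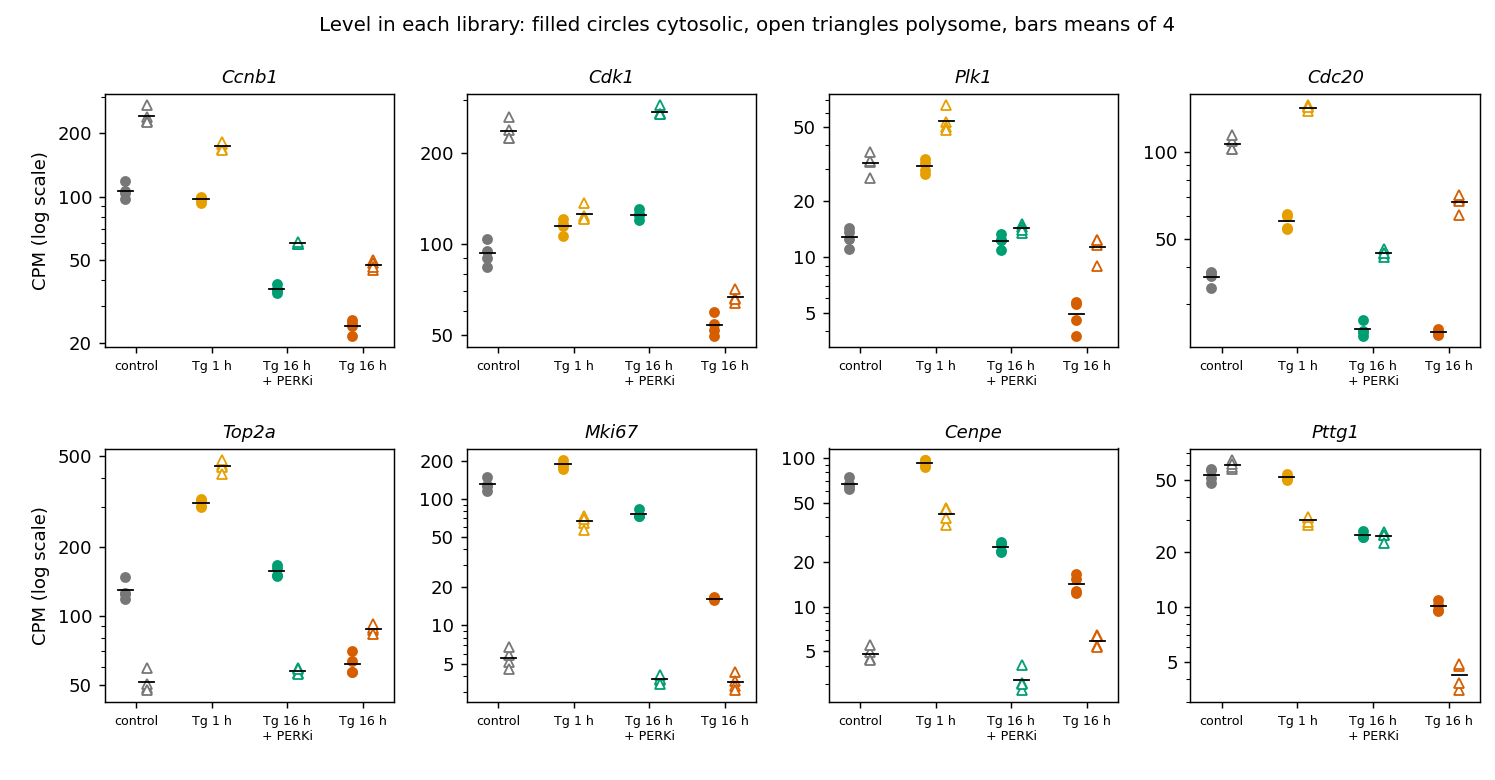
CPM (log scale) in each library for 8 genes, with filled circles for cytosolic and open triangles for polysome RNA, colours for the conditions and bars for means of 4. CPM are scaled within an RNA kind, so circles are compared with circles and triangles with triangles. Mki67, Cenpe and Top2a polysome levels are high at 1 h, whereas Ccnb1, Cdk1 and Pttg1 polysome levels are below control at 1 h and at 16 h without the inhibitor.

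With the inhibitor, polysome RNA of 23 of the 40 genes was higher than at 16 h and that of 14 lower (median 0.33), against 42.1% and 40.7% of all genes. All 6 cyclins, Cdk1 and phosphatases rose (median 1.81), while 5 of 8 motors and cytokinesis genes and 4 of 7 chromosome structure genes fell. Cdk1 was at 271.3, 288.99, 270.5 and 269.6 CPM in polysomes with the inhibitor, against 63.9, 66.6, 71.3 and 66.03 CPM without it (2.04 ± 0.056, adjusted p = 9.58e-18). Ccnb2 was at 49.5, 47.1, 47.02 and 46.96 CPM with the inhibitor, against 9.01, 8.69, 9.11 and 9.30 CPM without it (2.40 ± 0.051, adjusted p = 2.22e-19), and Pttg1 at 24.9, 25.8, 24.9 and 22.4 CPM with the inhibitor, against 3.46, 4.73, 3.82 and 4.84 CPM without it. Pttg1, with 2.54 ± 0.086 (adjusted p = 2.24e-16), was among the 3 highest, beside Ccna2, the cyclin of S phase and G2 (2.60 ± 0.085, adjusted p = 2.28e-16), and Spc25 (2.47 ± 0.077, adjusted p = 6.66e-17). The 3 lowest were Tpx2 (-1.26 ± 0.064, adjusted p = 1.60e-13), Anln (-1.16 ± 0.069, adjusted p = 2.32e-12) and Incenp, the scaffold of the passenger complex (-1.08 ± 0.065, adjusted p = 2.66e-12). Top2a was at 56.2, 58.98, 55.9 and 58.7 CPM with the inhibitor, against 86.3, 88.6, 92.1 and 82.9 CPM without it (-0.61 ± 0.061, adjusted p = 1.06e-08), a fall in polysomes beside its rise in cytosolic RNA. That pairing, higher in cytosolic RNA and lower in polysome RNA, was shared by 12 of the 40 genes. How many of all genes showed the pairing was not counted, so it is not known to be particular to the 40.

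Of the other core genes, polysome RNA of Ube2c, Birc5, Cdc25b, Aurkb, Cenpf, Cenpa, Bub3, Ccnb1 and Plk1 rose with the inhibitor, from 2.18 for Ube2c to 0.33 for Plk1. Bub1b, Smc4, Cenpe, Ndc80, Cdc20 and Kif20a fell, from -1.04 for Bub1b to -0.46 for Kif20a, and Mki67 (0.065), Espl1 (-0.0044) and Kif11 (-0.06) were not called. Relative to control, polysome RNA of 8 of the 40 was higher and of 24 lower with the inhibitor, against 36.8% and 40.3% of all genes. The 3 highest were Spc25 (1.28), Smc4 (0.96) and Smc2 (0.85), and the 3 lowest Ccnb2 (-2.65), Ccnb1 (-2.02) and Pttg1 (-1.30). Among the other core genes Bub3, Cdk1 and Top2a were higher, and Cenpf, Ndc80, Kif11 and Espl1 (0.23, 0.034, -0.047 and -0.083) were not called.

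Translational efficiency, here the change in polysome RNA over and above that in cytosolic RNA of the same gene, went in opposite directions for long and short mRNAs. At 1 h it rose for 22 of the 40 genes and fell for 15 (median 0.44), where it rose for 33.4% and fell for 34.4% of all 12561 genes tested (median -0.0052). At 16 h it rose for 21 and fell for 14 (median 0.44), against 31.1% and 33% of all. The counts that fell thus lay near the shares of all genes at both times. All 8 motors and cytokinesis genes rose at both times, and 5 of 6 cyclins, Cdk1 and phosphatases fell at both. With a correction for coding length, 7 of the 8 motors and cytokinesis genes rose at 1 h and 6 at 16 h, since Ect2 (0.039, adjusted p = 0.784 and 0.065, adjusted p = 0.658) and, at 16 h, Tpx2 (0.19, adjusted p = 0.114) were not called, and 4 of the 6 cyclins, Cdk1 and phosphatases fell at each time, without Ccnb1. Between 16 h and 1 h 3 rose and 8 fell, against 14.5% and 13.6% of all genes. The 3 that rose were Ndc80 (0.54), Bub3 (0.38) and Cdc20 (0.20), and Espl1 (-0.73), Cenpa (-0.68) and Mki67 (-0.67) were the 3 lowest. Cdc20 was not called with the length correction (0.12, adjusted p = 0.243).

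All 40 genes had a coding length in the GENCODE annotation. At 1 h translational efficiency rose for 12 of 12 genes with a coding length over 3000 nt (median log2 change 1.70) and for 7 of 7 between 2000 and 3000 nt (median 1.08). It fell for 9 and rose for 2 of 13 between 1000 and 2000 nt (median -0.43), and fell for 6 and rose for 1 of 8 under 1000 nt (median -0.94). All genes tested had medians of 0.90, 0.29, -0.21 and -0.20 in the same 4 classes, so they too rose in the long classes and fell in the short ones, over a narrower range. The share of all genes called within each class was not counted, so the counts by class have no matching background. Across the 40 genes the log2 change and log coding length had a Pearson r of 0.81 and a Spearman rho of 0.85, against 0.32 and 0.31 across all 12129 genes with a length. At 16 h the r was 0.83 and the rho 0.87 across the 40. These are descriptions across genes, which share their libraries and are not replicates. With the correction for coding length in the fit, 20 of the 40 rose and 13 fell at 1 h (median 0.26), against 33% and 32.7% of all genes. At 16 h 18 rose and 9 fell (median 0.17), against 31.4% and 30.4% of all. The share that fell was thus near that of all genes at 1 h and below it at 16 h. The correction ended 5 calls at 1 h and 9 at 16 h.

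**Figure D5:**
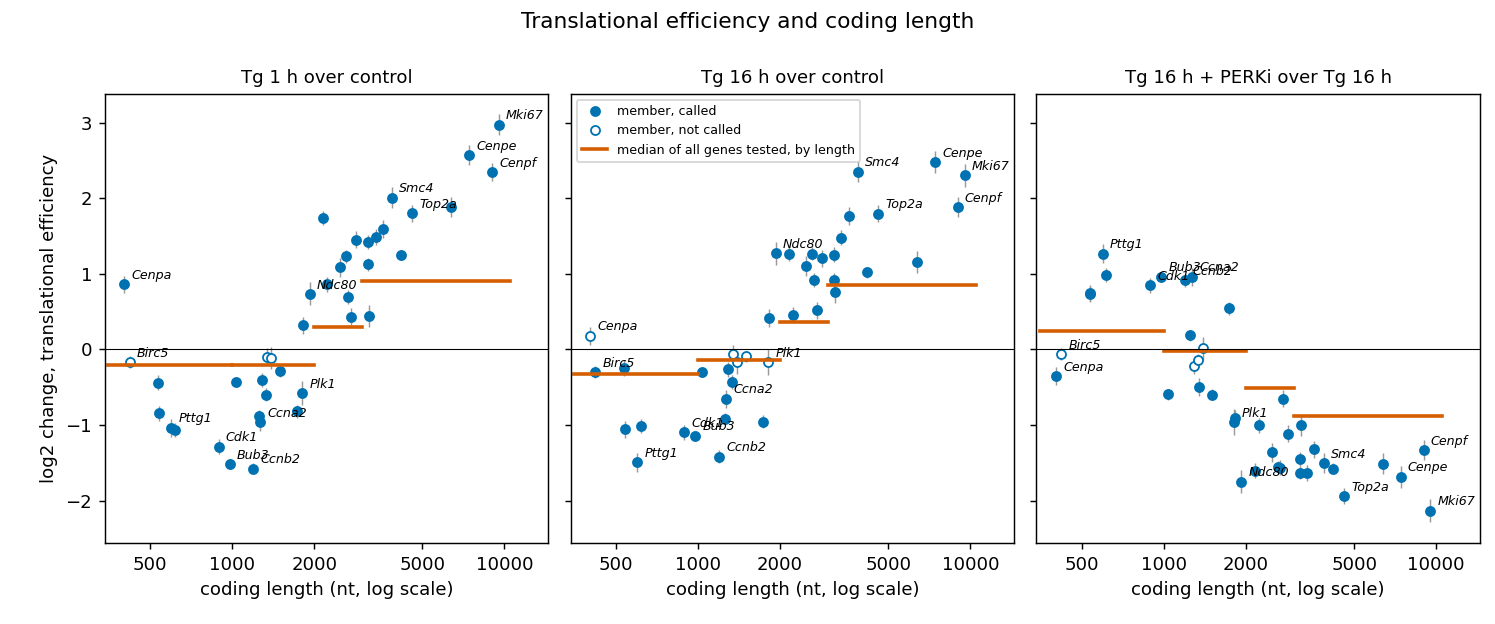
Log2 change in translational efficiency against coding length (nt, log scale) for the 40 genes, with standard errors, in 3 comparisons. Filled points were called, open points were not, and orange lines are medians of all genes tested in 4 length classes. Genes over 2000 nt lie above 0 at 1 h and at 16 h and below 0 with the inhibitor relative to 16 h, and the orange lines step the same way over a narrower range.

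The long end was held by Mki67 (9531 nt), Cenpe (7413 nt) and Cenpf (8991 nt), with the highest 1 h changes of 2.97 ± 0.14 (adjusted p = 1.70e-12), 2.57 ± 0.14 (adjusted p = 9.17e-12) and 2.34 ± 0.12 (adjusted p = 5.04e-12). With the length correction they were 1.31, adjusted p = 2.39e-07 for Mki67, 1.17, adjusted p = 6.16e-07 for Cenpe and 0.75, adjusted p = 2.23e-05 for Cenpf, still called but smaller. In control cells these mRNAs were poorly represented in polysomes. The log2 ratio of polysome to cytosolic CPM was -4.12 ± 0.34 for Mki67 in control cells, -1.14 ± 0.18 at 1 h and -1.82 ± 0.21 at 16 h (SD, n = 4 each). For Cenpe it was -3.37 ± 0.22 in control cells, -0.80 ± 0.18 at 1 h and -0.89 ± 0.29 at 16 h. Smc4 (3858 nt) had -4.05 ± 0.35 in control cells, -2.04 ± 0.17 at 1 h and -1.69 ± 0.20 at 16 h, and its change of 2.35 ± 0.14 (adjusted p = 5.36e-11) was among the 3 highest at 16 h, with Cenpe (2.47 ± 0.15, adjusted p = 4.40e-11) and Mki67 (2.30 ± 0.16, adjusted p = 2.93e-10). Top2a (4584 nt) rose by 1.80 ± 0.11 (adjusted p = 6.24e-11) at 1 h and by 1.79 ± 0.11 (adjusted p = 9.00e-11) at 16 h. The 12 genes over 3000 nt had a median ratio of -0.89 in control cells, against -0.47 for all genes of that length, and all 40 had 0.30.

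At the short end, Ccnb2 (1194 nt), Bub3 (978 nt) and Cdk1 (891 nt) had the lowest 1 h changes, -1.57 ± 0.076 (adjusted p = 2.54e-12), -1.52 ± 0.065 (adjusted p = 5.81e-13) and -1.28 ± 0.10 (adjusted p = 1.56e-09). For Ccnb2 the log2 ratio of polysome to cytosolic CPM was 1.68 ± 0.07 in control cells, 0.10 ± 0.041 at 1 h and 0.26 ± 0.20 at 16 h. For Cdk1 it was 1.78 ± 0.21 in control cells, 0.49 ± 0.08 at 1 h and 0.68 ± 0.19 at 16 h. The length correction left Cdk1 with -0.81, adjusted p = 1.12e-06 at 1 h. Both were among the 5 highest ratios of the 40 genes in control cells, and both were lower at 1 h than in any control sample. Pttg1 (597 nt), with -1.49 ± 0.13 (adjusted p = 7.25e-09), Ccnb2 and Bub3 were the 3 lowest at 16 h. Length did not order every gene. Cenpa, the shortest of the 40 at 402 nt, rose at 1 h (0.86 ± 0.11, adjusted p = 1.11e-06), and was the only gene under 1000 nt to do so.

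The other core genes at 1 h ran from 1.89 for Espl1 through 1.49 for Anln, 1.42 for Kif11, 1.13 for Bub1b, 0.73 for Ndc80 and 0.69 for Kif20a, all risen. On the falling side stood Cdc20 (-0.29), Ccnb1 (-0.41), Aurkb (-0.43), Plk1 (-0.58), Cdc25b (-0.82) and Ube2c (-0.84), and Birc5 (-0.17) was not called. Under the length correction the falls of Aurkb (0.03, adjusted p = 0.72), Ccnb1 (-0.081, adjusted p = 0.475) and Cdc20 (-0.10, adjusted p = 0.234) at 1 h were not called. Birc5, by contrast, was called lower with that correction (-0.18, adjusted p = 0.0376). At 16 h Anln (1.48), Ndc80 (1.27), Kif11 (1.25), Espl1 (1.16), Kif20a and Bub1b (0.92 each) rose. Ube2c (-1.06), Cdc25b (-0.96), Birc5 (-0.30), Aurkb (-0.30) and Ccnb1 (-0.26) fell, and Plk1 (-0.16), Cdc20 (-0.089) and Cenpa (0.18) were not called. The length correction ended the calls of Espl1 (0.0099, adjusted p = 0.957), Ccnb1 (-0.0036, adjusted p = 0.981), Birc5 (-0.12, adjusted p = 0.171) and Aurkb (0.13, adjusted p = 0.105) at 16 h. Cenpa, by contrast, was called higher with it (0.33, adjusted p = 0.0201). Cenpf rose by 1.88 and Cdk1, Ccnb2 and Bub3 changed by -1.09, -1.42 and -1.14 at 16 h, while at 1 h Smc4 rose (2.01) and Pttg1 fell (-1.03).

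With the inhibitor, translational efficiency moved the other way. Relative to 16 h it rose for 10 of the 40 genes and fell for 26 (median -0.94), against 26.4% and 33.7% of all genes (median -0.092). With the length correction 9 of the 40 rose and 27 fell (median -0.64), against 21.7% and 33% of all genes. The count that rose thus lay near the share of all genes, both without and with the length correction. The counts by length below are without that correction. It fell for 12 of 12 genes over 3000 nt (median -1.54) and 7 of 7 between 2000 and 3000 nt (median -1.36). All genes of those lengths also fell in the median, by -0.88 and -0.51, and the shares called were not counted. Under 1000 nt it rose for 6 of 8 and fell for 1 (median 0.80), where all genes of that length had a median of 0.25. This comparison shares its 16 h libraries with the one against control, so the reversal is not an independent result. The 3 highest were Pttg1 (1.27 ± 0.13, adjusted p = 9.95e-08), Mad2l1 (0.98 ± 0.093, adjusted p = 3.66e-08) and Ccna2 (0.96 ± 0.12, adjusted p = 1.17e-06), and the 3 lowest Mki67 (-2.13 ± 0.16, adjusted p = 1.42e-09), Top2a (-1.94 ± 0.11, adjusted p = 5.84e-11) and Ndc80 (-1.75 ± 0.15, adjusted p = 1.17e-08). The log2 ratio of Pttg1 was 0.38 ± 0.14 with the inhibitor, against -0.89 ± 0.33 without it. That of Mki67 was -3.95 ± 0.15 with the inhibitor, against -1.82 ± 0.21 without it, and its change with the length correction was -0.98, adjusted p = 4.97e-05.

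Among the other core genes translational efficiency rose with the inhibitor for Bub3 (0.96), Ccnb2 (0.91), Cdk1 (0.85), Ube2c (0.74) and Cdc25b (0.55). It fell for Cenpe, Bub1b, Anln, Kif20a, Espl1, Smc4, Kif11, Cenpf, Plk1, Cdc20, Aurkb and Cenpa, from -1.68 for Cenpe to -0.35 for Cenpa. With the length correction Cenpf was not called (-0.22, adjusted p = 0.178, -1.33 without it). Ccnb1 (-0.22) and Birc5 (-0.063) were not called without the correction. With it both were called lower, Ccnb1 by -0.41 (adjusted p = 0.00177) and Birc5 by -0.27 (adjusted p = 0.00628). Relative to control, 6 of the 40 were higher and 21 lower with the inhibitor (median -0.27), against 16.3% and 27.1% of all genes (median -0.12). The 6 of 40 higher lay near the share of all genes. Smc4 (0.84), Cenpe (0.79) and Cenpf (0.55) were the 3 highest, and Plk1 (-1.13), Aurkb (-0.89) and the kinase Aurka (-0.73) the 3 lowest. Cenpf was not called here either with the length correction (0.24, adjusted p = 0.116).

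Other genes of the same machinery were counted in cytosolic RNA for comparison. Their counts are read beside the shares of all genes, 28.1% higher and 28.1% lower at 1 h, 37.9% and 39.4% at 16 h, and 42.2% and 32.5% with the inhibitor relative to 16 h. Of the other spindle, midzone and cytokinesis genes, 24 of 28 rose and 2 fell at 1 h, 3 of 28 rose and 23 fell at 16 h and 23 of 28 rose and 3 fell with the inhibitor relative to 16 h. Their smallest p at 16 h was that of Cdca3, which helps trigger mitotic entry (-3.08 ± 0.053). Of the other centromere and kinetochore genes, 12 of 34 rose and 4 fell at 1 h, 4 of 34 rose and 24 fell at 16 h and 31 of 34 rose and 1 fell with the inhibitor, led at 16 h by Cdca8 (borealin), a passenger complex subunit (-1.65 ± 0.052). Of the entry and exit regulators, 6 of 18 rose and 6 fell at 1 h, 1 of 18 rose and 11 fell at 16 h and 16 of 18 rose and 1 fell with the inhibitor. Ccnf, a cyclin that works as a ubiquitin ligase subunit, changed by -1.66 ± 0.073 at 16 h and by 2.14 ± 0.073 with the inhibitor. Of the other condensin and cohesin genes, 11 of 16 rose and 2 fell at 1 h, 5 of 16 rose and 9 fell at 16 h and 8 of 16 rose and 6 fell with the inhibitor. The entry and exit regulators at 1 h and the condensin and cohesin genes with the inhibitor thus lay near the shares of all genes.

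Core subunits of the anaphase-promoting complex, which are not known as cell cycle transcripts, had no common direction: 6 of 14 rose and 4 fell at 1 h, 7 of 14 rose and 5 fell at 16 h and 6 of 14 rose and 6 fell with the inhibitor, with medians of 0.093, 0.15 and -0.0077. Several of these counts lay near the shares of all genes, such as 4 of 14 lower at 1 h and 6 of 14 higher with the inhibitor. Of the regulators of the programme, 4 of 24 rose and 6 fell at 1 h, 8 of 24 rose and 12 fell at 16 h and 16 of 24 rose and 5 fell with the inhibitor. E2f7 and E2f8, repressors of the E2F family, changed by -1.18 ± 0.079 and -1.40 ± 0.08 at 16 h and by 2.84 ± 0.08 and 2.63 ± 0.079 with the inhibitor. Lin52, a MuvB subunit, was higher at 16 h (1.61 ± 0.11). The differences between these lists and the 40 genes were not tested.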

How the data were processed

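Cytosolic and polysome RNA of 16 samples were sequenced (32 libraries). The authors deposited unnormalised read counts for 20234 gene symbols, 3234 of them at 0 throughout. The submitters' processing notes name HISAT, the mm10 build and DESeq2 1.9.23. How reads were assigned to genes, on which strand and with which annotation is not given in the sources used here. Total counts were 19.32 M to 41.78 M per library, and no pair of libraries in a group agreed within sampling noise (lowest chi-square per degree of freedom 2.32).

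Counts were analysed here with edgeR 4.0.16 (R 4.3.3): filterByExpr (minimum count 10, minimum total 15), TMM factors and the robust quasi-likelihood test, with Benjamini-Hochberg adjustment over all genes of a fit and a threshold of 0.05. A first fit held the 16 cytosolic libraries (12366 genes) and another the 16 polysome libraries (12065 genes), with the 4 conditions as groups. Translational efficiency (12561 genes) was the interaction of RNA kind and condition over all 32, with sample as a block, since the series' design text says that the RNA of each sample was divided into both kinds; log2 ratios used factors over all 32 libraries. Scripts were tested on simulated data. Alternatives were DESeq2 1.42.0, median-ratio size factors, no filter, the replicate number as a block, a coding length correction (GENCODE, GRCm38, loess span 0.5) and leaving out each sample. The 40 genes and the lists were chosen with earlier results of these data known. Named are 23 core genes, the 3 highest and 3 lowest of the 40 per comparison and all of a direction with 5 or fewer, and of other lists up to 3 genes with the smallest p.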

Additional observations from a re-analysis of the deposited data

Results flagged for a closer look

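Within 14 of the 184 groups of 4 libraries tested (23 core genes, 8 groups each), 1 library lay apart from the other 3 by more than Dixon's 95% critical value, and chance gives about 1 in 20 groups. The library was the highest of its group for Cdk1 in polysome RNA of 1 h replicate 4 (137.4 CPM, nearest 124.2 CPM), Cdk1 in polysome RNA of inhibitor replicate 2 (288.99 CPM, nearest 271.3 CPM), Ccnb2 in polysome RNA of inhibitor replicate 1 (49.5 CPM, nearest 47.1 CPM), Bub1b in cytosolic RNA of control replicate 1 (53.2 CPM, nearest 47.4 CPM), Kif20a in cytosolic RNA of inhibitor replicate 2 (35.5 CPM, nearest 32.8 CPM), Kif20a in polysome RNA of inhibitor replicate 4 (28.2 CPM, nearest 26.6 CPM), Mki67 in cytosolic RNA of inhibitor replicate 2 (83.6 CPM, nearest 74.2 CPM) and Pttg1 in cytosolic RNA of inhibitor replicate 4 (25.98 CPM, nearest 24.5 CPM). It was the lowest for Ccnb2 in cytosolic RNA of inhibitor replicate 3 (26.8 CPM, nearest 27.999 CPM), Cdc25b in cytosolic RNA of inhibitor replicate 4 (29.3 CPM, nearest 32.2 CPM), Cdc25b in polysome RNA of 16 h replicate 2 (8.53 CPM, nearest 9.63 CPM), Cenpf in polysome RNA of control replicate 4 (4.22 CPM, nearest 5.46 CPM), Cenpf in polysome RNA of 1 h replicate 3 (26.1 CPM, nearest 34.6 CPM) and Anln in polysome RNA of 1 h replicate 3 (94.9 CPM, nearest 105.1 CPM).

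The effects of thapsigargin at 16 h and at 1 h differed by a direct test (16 h against 1 h, edgeR) for 38 of the 40 genes in cytosolic RNA, for 39 in polysome RNA and for 11 in translational efficiency. Over all genes 37.7% were called higher and 37.7% lower in cytosolic RNA, and 38.4% and 40% in polysome RNA. In translational efficiency 14.5% were called higher and 13.6% lower, so the 11 of 40 lay near the share of all genes.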

How the results depend on the processing

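Counts of the 40 genes called stayed within 1.5 times the reported ones under DESeq2, median-ratio size factors, no filter on low counts and coding length correction, and when any 1 sample was left out. The widest ranges without 1 sample were 9 to 15 for translational efficiency at 16 h against 1 h and 23 to 29 for the inhibitor against control; in cytosolic RNA at 16 h against control it was 39 to 40. Deviations of same-numbered cytosolic libraries correlated at -0.495 to 0.665 (median 0.0097, against 0.0043 for differently numbered ones), with 3 of 16 closest to their own number, so the numbers were not taken to pair samples. Those of the cytosolic and polysome library of 1 sample correlated at -0.316 to 0.160 (median 0.054). The block of sample thus rests on the design text alone. With the replicate number as a block the count was 35 in cytosolic RNA at 1 h against control (36 reported) and no other cytosolic or polysome count changed. Without the block of sample in translational efficiency it was 38 at 1 h against control (37 reported), 12 at 16 h against 1 h (11) and 28 for the inhibitor against control (27). The fall of Aurkb in translational efficiency reversed with the length correction, to 0.030 at 1 h and 0.13 at 16 h, called at neither time. That correction also left 9 of the 40 lower at 16 h (14 reported). Genes lower with the inhibitor in cytosolic RNA were 2 with median-ratio factors and with DESeq2 (1 reported). Those higher in translational efficiency at 16 h against 1 h were 5 with DESeq2 and 8 without the first 16 h sample (3 reported). Medians over the 40 moved by more than the spread between replicates in 16 cases and kept their sign. With median-ratio factors and DESeq2 they were 1.14 in cytosolic RNA for the inhibitor against 16 h (1.20 reported), 0.91 in polysome RNA at 1 h (0.97 reported) and -0.19 in translational efficiency for the inhibitor against control (-0.27 reported). With the length correction they were 0.26 at 1 h, 0.17 at 16 h (0.44 reported for both) and -0.64 for the inhibitor against 16 h (-0.94 reported). Without 1 sample they were 0.53 in cytosolic RNA at 1 h (control replicate 1; 0.46 reported), 0.91 to 1.04 in polysome RNA at 1 h (control replicates 4 and 3), -0.46 and -0.40 in polysome RNA for the inhibitor against control (control replicates 1 and 3; -0.43 reported), 0.32 in translational efficiency at 1 h (control replicate 1) and -0.86 for the inhibitor against 16 h (16 h replicate 3). Other log2 changes that turned sign were called on neither side. They were, with median-ratio factors -0.0248 for Cdc20 (cytosolic RNA, the inhibitor against 16 h), 0.00132 for Anln (translational efficiency, 16 h against 1 h) and 0.00156 for Top2a (translational efficiency, 16 h against 1 h); with DESeq2 -0.0249 for Cdc20 (cytosolic RNA, the inhibitor against 16 h), 0.00276 for Espl1 (polysome RNA, the inhibitor against 16 h), 0.00117 for Anln (translational efficiency, 16 h against 1 h) and 0.00175 for Top2a (translational efficiency, 16 h against 1 h); with the length correction 0.0220 for Cdc20 (translational efficiency, 16 h against control), 0.0566 for Birc5 (translational efficiency, 16 h against 1 h), 0.0315 for Cenpe (translational efficiency, 16 h against 1 h), 0.0177 for Top2a (translational efficiency, 16 h against 1 h) and -0.15 for Mki67 (translational efficiency, the inhibitor against control); with no filter 0.00188 for Anln (translational efficiency, 16 h against 1 h) and 0.00212 for Top2a (translational efficiency, 16 h against 1 h). Without 1 sample, others turned sign, called in no such case, and ran from -0.00281 to 0.0595 for Cdc20 (cytosolic RNA, the inhibitor against 16 h), from -0.0322 to 0.0737 for Kif11 (polysome RNA, 16 h against control), from -0.14 to 0.0126 for Espl1 (polysome RNA, 16 h against control), from -0.0700 to 0.0840 for Espl1 (polysome RNA, the inhibitor against 16 h), from -0.0144 to 0.16 for Mki67 (polysome RNA, the inhibitor against 16 h), from -0.0648 to 0.15 for Ndc80 (polysome RNA, the inhibitor against control), from -0.0906 to 0.0159 for Kif11 (polysome RNA, the inhibitor against control), from -0.14 to 0.0177 for Espl1 (polysome RNA, the inhibitor against control), from -0.0529 to 0.0391 for Anln (translational efficiency, 16 h against 1 h), from -0.0890 to 0.0688 for Top2a (translational efficiency, 16 h against 1 h), from -0.21 to 0.0240 for Cenpe (translational efficiency, 16 h against 1 h). The cause was not tested. Reads per gene were no limit, with at least 82 counts for each of the 40 in every library, with Cenpf lowest. CPM are relative, so a change shared by every mRNA cannot be seen.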

Other observations

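Genes of DNA replication, the step before the mitotic programme, were counted in cytosolic RNA beside it. Of 46 tested, 30 rose and 5 fell at 1 h (median log2 change 0.24), where 28.1% and 28.1% of all genes did, and 12 rose and 24 fell at 16 h (median -0.15), against 37.9% and 39.4% of all. Mcm7, a subunit of the replicative helicase, was higher at 16 h (0.79 ± 0.038, standard error from edgeR's fit), while Tk1, thymidine kinase (-2.58 ± 0.13), and Cdc7, the kinase that fires origins (-1.61 ± 0.084), were lower. With the PERK inhibitor 39 rose and 2 fell relative to 16 h (median 1.14), against 42.2% and 32.5% of all genes, with the smallest p for Rrm2, a ribonucleotide reductase subunit (1.95 ± 0.057). Relative to control 43 of the 46 were higher with the inhibitor (median 0.80), against 38.1% of all genes, with the smallest p for Rpa2, which coats single-stranded DNA (1.72 ± 0.054), Chaf1b, a histone chaperone (1.57 ± 0.051), and Cdc6, which loads the helicase (2.61 ± 0.086). The mitotic genes had 11 of 40 higher and 19 lower in the same comparison, and the difference between the lists was not tested. E2f2, an E2F transcription factor, was 6.12-fold above control with the inhibitor (2.61 ± 0.095).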
